A study of Bos taurus with 36 samples.

Results

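The genes described here are MAP kinases and their upstream kinases, the dual specificity phosphatases that switch MAP kinases off, and the mRNA-binding protein ZFP36. The set was a list of 10 genes, DUSP1, DUSP4, DUSP5, DUSP6, DUSP10, MAPK14, MAP2K3, MAP3K8, MAPKAPK2 and ZFP36, and its members were all probe sets annotated with exactly 1 gene symbol from that list. This gave 8 of the 24128 probe sets of the Affymetrix Bovine Genome Array: 1 each for DUSP1, MAP2K3 and ZFP36, 2 for DUSP10 and 3 for MAPK14. No probe set carried the name of DUSP4, DUSP5, DUSP6, MAP3K8 or MAPKAPK2 in the annotation table, in which 10724 probe sets had no symbol, so those 5 genes were not analysed here.

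Liver biopsies came from 8 healthy Holstein-Friesian dairy cows, 9 to 12 weeks into their first lactation. At time 0 every cow received 200 µg of E. coli lipopolysaccharide (LPS, the outer membrane component that innate immune cells sense) in 10 ml of 0.9% NaCl in the right front gland of the udder, and saline alone in the left front gland. Cows 1, 3, 7 and 8 were biopsied 22 h before LPS (-22 h) and at 3, 6, 9, 12 and 48 h, and cows 2, 4, 5 and 6 only at -22, 9 and 48 h, which gave 36 arrays with 8 cows at -22, 9 and 48 h and 4 cows at 3, 6 and 12 h. Each change below sets the mean of an hour's arrays, from 4 cows at 3, 6 and 12 h, against the mean of all 8 cows at -22 h. All arrays came from LPS-treated cows, so in these arrays LPS, clock time and repeated biopsy cannot be told apart. The study's separate biopsies of saline-infused cows were not analysed here. From them the paper reports no biopsy effect on clinical measurements or on the few selected genes it measured.

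In a MAP kinase cascade, a MAP kinase kinase kinase (such as MAP3K8) phosphorylates a MAP kinase kinase (such as MAP2K3), which phosphorylates a MAP kinase (such as MAPK14, also called p38 alpha). In mouse and human cells, p38 activates the kinase MAPKAPK2, which phosphorylates ZFP36, a protein that binds AU-rich elements in cytokine mRNAs and promotes their decay. Dual specificity phosphatases remove the activating phosphates: DUSP1 and DUSP10 act mainly on p38 and JNK, whereas DUSP6 acts on ERK. The arrays measured mRNA and not phosphorylation or kinase activity. In bulk tissue, fewer cells of a type and less RNA per cell cannot be told apart.

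Values are log2 intensities after GCRMA normalization, with a lowest value of 0.69 and a median of 4.28 over all arrays. A probe set was called when its change against -22 h had a Benjamini-Hochberg-adjusted p below 0.05 in a limma fit over all 24128 probe sets and all 36 arrays. At 6 h and later that fit called a large share of the whole array, so the main counts of members are given beside it. Hepatocyte markers were high on every array, the mean over the 10 measured markers lying between 14.48 and 14.98, and T cell, B cell and natural killer cell markers were mostly near the low end of the scale. Per array, the mean over the 8 measured of 10 neutrophil markers was higher at every hour after LPS than at -22 h. It was 4.27 to 4.74 at -22 h, 5.50 to 6.60 at 3 h and 6.23 to 6.60 at 6 h. It was then 6.54 to 8.17 at 9 h, 6.63 to 7.83 at 12 h and 5.02 to 6.19 at 48 h. Of those 8 markers only S100A8, S100A9 and S100A12 were called at 3, 6 and 48 h, all higher. At 9 and 12 h S100A8, S100A9, S100A12 and CXCR1 rose and FCGR3A fell. LTF was not called at any hour, and MMP9 and CAMP stayed near the low end. Of 9 measured markers of macrophages and Kupffer cells (11 listed), 5 fell at 6 h, 5 at 9 h and 6 at 12 h. In that list 1 rose at 3 h and 1 at 6 h, CD14 at both hours. The list's array means were 8.15 to 9.26 at 9 h and 8.67 to 9.59 at -22 h. Of 9 endothelial markers, 4 fell at 6 h, 6 at 9 h and 4 at 12 h and 1 rose at 6 and 9 h, with array means of 5.41 to 5.77 at 9 h and 5.88 to 6.73 at -22 h. Of the 10 hepatocyte markers, 5 fell at 6 h and 6 at 9 and 12 h, and 2 rose at each of these hours. The part of these cell types in the changes below was not tested.

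Over the 8 member probe sets, 4 rose and 0 fell at 3 h, 6 rose and 0 fell at 6 h, 5 rose and 0 fell at 9 h, 3 rose and 1 fell at 12 h, and 3 rose and 1 fell at 48 h. Among all probe sets 3.50% rose and 2.40% fell at 3 h, 23.3% rose and 22.0% fell at 6 h, 32.0% rose and 22.6% fell at 9 h, 22.2% rose and 18.9% fell at 12 h, and 17.9% rose and 12.2% fell at 48 h. The median log2 change of the members was 0.48, 1.67, 0.90, 0.42 and 0.16 at 3, 6, 9, 12 and 48 h, while the median of all probe sets stayed between -0.03 and 0.03. Among the 11141 probe sets averaging 5 or more over the arrays, the median change lay between -0.13 and 0.07. The list of members was chosen with earlier results of these data known, and 3 of the 8 probe sets read MAPK14. These counts and medians are therefore a description and not a test of the set. The members did not move as one: ZFP36 and the MAPK14 probe sets were up at 3 h, DUSP1 and MAP2K3 only passed the test at 6 and 9 h, and DUSP10 passed it only at 12 and 48 h.

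**Figure D1:**
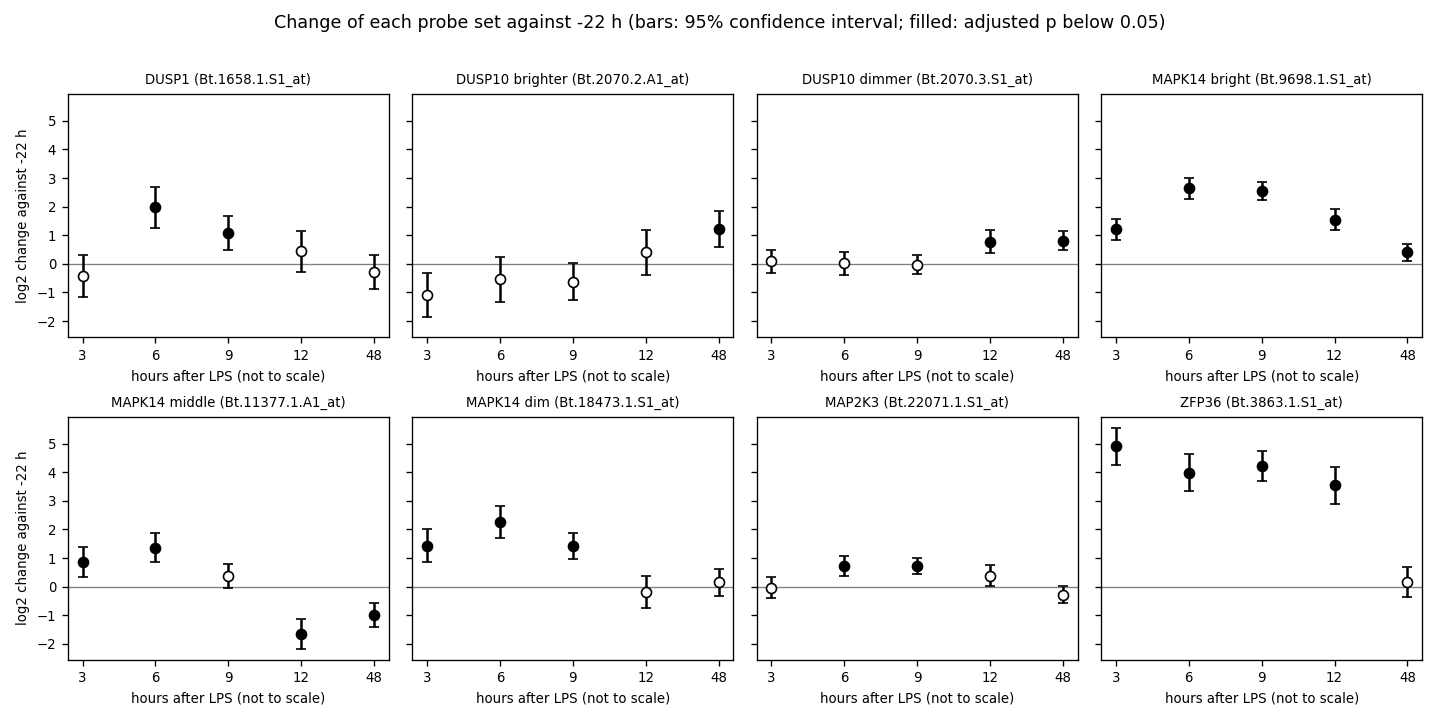
Log2 change of each of the 8 member probe sets against -22 h, by hour after LPS. Points are limma estimates, bars are 95% confidence intervals, and filled points have a Benjamini-Hochberg-adjusted p below 0.05. ZFP36 had the largest change of the members at every hour from 3 to 12 h. The MAPK14 probe sets differed in call at 9 h, when only the middle one was not called, and in direction at 12 h.

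MAPK14, the p38 alpha kinase, was read by 3 probe sets, called bright, middle and dim here by their mean over the 36 arrays (9.69, 7.65 and 6.30). All 3 rose at 3 h and again stood above -22 h at 6 h. At 9 h the middle one was not called. At 12 h the bright one was up, the middle one was down and the dim one was not called. RefSeq lists 7 transcripts for MAPK14 in its ARS-UCD2.0 annotation, and which of them each probe set reads is not known from the sources used here. The labelling primer was oligo-dT, which starts copying at the poly(A) tail.

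The bright probe set lay at 8.10 to 9.21 (median 8.36) at -22 h. At 3 h cows 1, 3, 7 and 8 had 10.23, 9.36, 9.50 and 9.47, at 6 h they had 10.83, 11.31, 11.15 and 11.03, at 9 h the 8 cows lay between 10.75 and 11.30 (median 10.95), at 12 h the 4 cows had 9.74, 10.12, 10.06 and 9.99, and at 48 h the 8 cows lay between 8.46 and 9.64 (median 8.81). Every array from 3 to 12 h exceeded every array at -22 h, whereas the 48 h and -22 h arrays overlapped. The log2 change was 1.20 ± 0.18 at 3 h, 2.64 ± 0.18 at 6 h, 2.55 ± 0.15 at 9 h and 1.54 ± 0.18 at 12 h (SE; limma adjusted p 2.314e-05, 1.684e-13, 8.328e-16 and 1.565e-08), or 6.25-fold at 6 h. At 48 h it was 0.40 ± 0.15 (adjusted p 0.04502), with 7 of 8 cows above their own -22 h value. That call was lost when any of cows 2 to 8 was left out (0.26 to 0.51 over all 8 omissions) and in the 4 cows with 6 biopsies alone (0.27, adjusted p 0.4048). Cow 1 at -22 h and cow 2 at 48 h stood apart from the other cows of their hours over all probe sets. Without both arrays the 48 h change was 0.39 (limma adjusted p 0.01591).

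The middle probe set took a different course. It lay at 7.46 to 8.01 (median 7.74) at -22 h, and cows 1, 3, 7 and 8 had 8.89, 8.52, 8.44 and 8.53 at 3 h and 8.67, 9.50, 9.18 and 9.01 at 6 h. At 9 h the 8 cows lay between 7.67 and 8.35 (median 8.10), at 12 h the 4 cows had 4.61, 6.63, 6.75 and 6.34, and at 48 h the 8 cows lay between 5.84 and 7.16 (median 6.79). The 3 and 6 h arrays were all above, and the 12 and 48 h arrays all below, the range at -22 h, and only the 9 h arrays overlapped it. It rose by 0.87 ± 0.26 at 3 h (adjusted p 0.03602) and 1.37 ± 0.26 at 6 h (3.758e-05), was 0.37 ± 0.21 above -22 h at 9 h (0.1209), and fell by 1.65 ± 0.26 at 12 h (2.119e-06) and by 1.00 ± 0.21 at 48 h (0.0007865), a 3.13-fold lower level at 12 h than at -22 h. All 4 cows at 12 h and all 8 at 48 h were below their own -22 h value. The 3 h call was lost when any of cows 2, 3, 5, 6, 7 and 8 was left out (adjusted p up to 0.1206), although the change itself stayed between 0.75 and 0.91, and in the 4 cows with 6 biopsies alone the 48 h change was -0.97 (adjusted p 0.127). Without cow 1 the 9 h change was called (0.41, adjusted p 0.002526).

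The dim probe set was called higher at 3, 6 and 9 h and was not called at 12 or 48 h. It had 4.59 to 6.31 (median 5.62) at -22 h, 7.13, 6.96, 7.00 and 6.90 in cows 1, 3, 7 and 8 at 3 h, 7.39, 8.33, 7.83 and 7.76 at 6 h, 6.58 to 7.30 (median 7.07) in 8 cows at 9 h, 4.42, 5.79, 5.96 and 5.32 in the 4 cows at 12 h, and 4.91 to 6.37 (median 5.80) in 8 cows at 48 h. The arrays at 3, 6 and 9 h were all above the -22 h range, and those at 12 and 48 h overlapped it. The log2 change was 1.44 ± 0.28, 2.26 ± 0.28 and 1.42 ± 0.23 at 3, 6 and 9 h (limma adjusted p 0.000714, 3.416e-08 and 2.282e-06). It was -0.19 ± 0.28 at 12 h and 0.15 ± 0.23 at 48 h (0.6693 and 0.6321). At 12 h 3 of 4 cows were above their own -22 h value, and without cow 1 the change was 0.24 (limma adjusted p 0.6044).

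The parting of the probe sets was seen within single arrays. The value of the bright probe set minus that of the middle one was 0.18 to 1.66 at -22 h, 0.84 to 1.34 at 3 h, 1.81 to 2.15 at 6 h, 2.61 to 3.23 at 9 h, 3.31 to 5.14 at 12 h and 1.59 to 2.99 at 48 h. At 12 h the highest difference belonged to cow 1, whose value on the middle probe set was its lowest on any array, and without that cow the 12 h fall was still called. From 9 to 12 h alone, the middle probe set fell by 2.02 ± 0.26, which passed the Bonferroni threshold of 0.01 that the authors' methods use between neighbouring hours. Averaged over its probe sets, MAPK14 would have changed by -0.10 at 12 h (adjusted p 0.7191) and by -0.15 at 48 h (0.5066), so its direction at those hours rests on the choice of probe set.

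**Figure D2:**
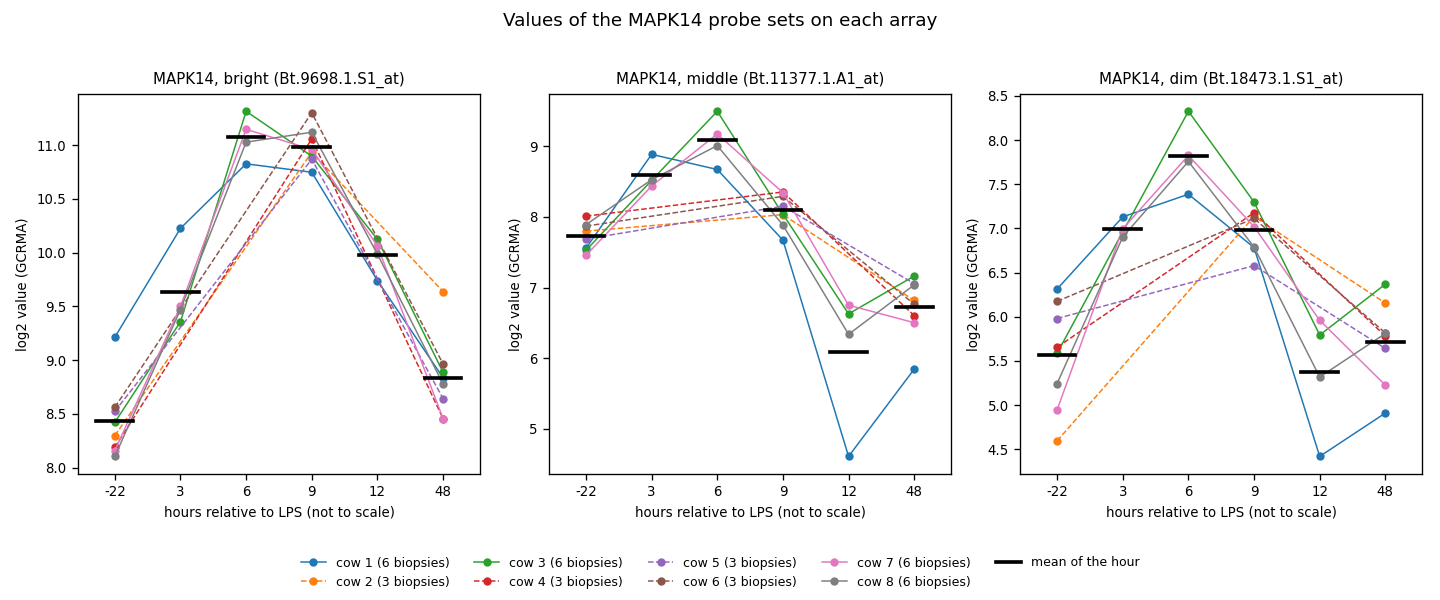
Log2 values of the 3 MAPK14 probe sets on each of the 36 arrays, by hour relative to LPS. Lines join the arrays of a cow, solid for the 4 cows with 6 biopsies and dashed for the 4 with 3, and black bars are hour means. The hour means of all 3 panels peak at 6 h, and only in the left one is the 12 h mean above that at -22 h. In the right panel 3 of 4 cows at 12 h were above their own -22 h value.

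MAP2K3, the kinase that phosphorylates p38, rose at 6 and 9 h. It lay at 8.59 to 9.08 (median 8.93) at -22 h, and cows 1, 3, 7 and 8 had 8.99, 8.82, 8.98 and 8.63 at 3 h, 9.50, 9.89, 9.79 and 9.24 at 6 h and 9.42, 9.72, 9.40 and 8.56 at 12 h. The 8 cows lay between 9.03 and 9.96 (median 9.73) at 9 h and between 8.07 and 8.78 (median 8.68) at 48 h. The 6 h arrays were all above the -22 h range, and at 9 h the lowest values, from cows 8 and 2, fell within it. The log2 change was 0.72 ± 0.18 at 6 h and 0.72 ± 0.14 at 9 h (limma adjusted p 0.001041 and 6.86e-05), or 1.65-fold at either hour, and all 4 and all 8 cows were above their own -22 h value. At 3 h the change was -0.03 ± 0.18 (0.9421), at 12 h 0.39 ± 0.18 (0.08203) and at 48 h -0.29 ± 0.14 (0.117). With the cow as a fixed block it was 0.38 at 12 h (adjusted p 0.01511) and -0.29 at 48 h (0.03004), so both passed the test. Leaving out cow 8, which had the lowest value at 12 h, the change there was 0.58 (adjusted p 0.002309) and that at 48 h -0.34 (0.03668).

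DUSP1, also called MKP-1, is an early response phosphatase in many cell types. Its mRNA did not pass the test at 3 h here, and with no biopsy between -22 and 3 h an earlier, brief rise could not be seen. It lay at 8.32 to 9.34 (median 8.90) at -22 h, and cows 1, 3, 7 and 8 had 7.39, 9.49, 8.44 and 8.56 at 3 h, 10.63, 11.50, 11.20 and 10.14 at 6 h and 9.14, 10.00, 10.47 and 7.72 at 12 h. The 8 cows lay between 9.44 and 10.44 (median 9.99) at 9 h and between 8.08 and 9.18 (median 8.65) at 48 h. The arrays at 6 and 9 h were all above the -22 h range, whereas at 3 h cow 1 was below it and cow 3 above it. DUSP1 rose by 1.97 ± 0.36 at 6 h (3.92-fold, adjusted p 2.349e-05) and 1.07 ± 0.29 at 9 h (2.10-fold, 0.002397). The change at 3 h was -0.43 ± 0.36 (95% confidence interval -1.15 to 0.30, adjusted p 0.5428), with 3 of 4 cows lower. At 12 h it was 0.44 ± 0.36 (0.4104), with cows 3 and 7 above and cows 1 and 8 below their own -22 h value, and at 48 h -0.29 ± 0.29 (0.4623). Without cow 8 the 12 h change was 0.99 (adjusted p 0.02214), and in the 4 cows with 6 biopsies alone the 9 h change was 0.91 (0.1352). Between 3 and 6 h DUSP1 rose by 2.40 ± 0.41 (Bonferroni-adjusted p 0.04909, Benjamini-Hochberg-adjusted p 1.996e-05).

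DUSP10, another phosphatase of p38 and JNK, passed the test only at 12 and 48 h. Its 2 probe sets averaged 4.75 and 3.08 over the 36 arrays, where the median of all values was 4.28. Its brighter probe set lay at 3.94 to 5.41 (median 4.78) at -22 h, and cows 1, 3, 7 and 8 had 3.14, 4.00, 4.27 and 3.24 at 3 h, 3.58, 5.20, 4.30 and 3.78 at 6 h and 5.78, 5.34, 6.15 and 3.37 at 12 h. The 8 cows lay between 3.75 and 4.62 (median 4.09) at 9 h and between 4.67 and 6.74 (median 6.09) at 48 h. All 8 cows at 48 h exceeded their own -22 h value, but the 2 ranges overlapped through cow 2. The log2 change was 1.22 ± 0.31 at 48 h (2.34-fold, adjusted p 0.005486), and 0.41 ± 0.38 at 12 h (0.4925). At 3, 6 and 9 h it was -1.09 ± 0.38, -0.53 ± 0.38 and -0.62 ± 0.31 (adjusted p 0.09785, 0.244 and 0.08655), with 4 of 4, 4 of 4 and 7 of 8 cows below their own -22 h value. With array weights all 3 of these changes were called (-1.19, -0.73 and -0.70, adjusted p 0.0159, 0.05 and 0.04348). The 3 h change was -1.17 (adjusted p 0.042) without the -22 h array of cow 1 and the 48 h array of cow 2, the 9 h change was -0.81 (0.04904) without cow 4, and the 12 h change was 1.03 (0.02997) without cow 8.

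The dimmer DUSP10 probe set lay at 2.75 to 2.86 (median 2.83) at -22 h and under 5 on every array. Cows 1, 3, 7 and 8 had 2.50, 3.25, 3.06 and 2.83 at 3 h, 2.86, 2.89, 2.91 and 2.65 at 6 h and 4.02, 3.78, 3.90 and 2.64 at 12 h, and the 8 cows lay between 2.52 and 3.28 (median 2.76) at 9 h and between 2.92 and 4.22 (median 3.69) at 48 h. Every 48 h array was above every -22 h array, and at 12 h all but cow 8 were. It rose by 0.77 ± 0.20 at 12 h (adjusted p 0.001553) and by 0.81 ± 0.16 at 48 h (0.0005025), and its change at 3, 6 and 9 h was between -0.03 and 0.10. In the 4 cows with 6 biopsies alone the 48 h change of the brighter probe set was 1.24 (adjusted p 0.129) and that of the dimmer one 0.79 (0.08526).

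ZFP36, also called TTP, had the largest change among the members. It lay at 6.44 to 8.80 (median 7.33) at -22 h, and cows 1, 3, 7 and 8 had 12.15, 12.68, 12.30 and 12.17 at 3 h, 11.72, 11.61, 11.09 and 11.21 at 6 h and 10.21, 11.61, 11.98 and 10.05 at 12 h. The 8 cows lay between 11.21 and 12.00 (median 11.61) at 9 h and between 7.26 and 8.21 (median 7.37) at 48 h. No array from 3 to 12 h overlapped the -22 h range, and the 48 h arrays lay inside it. ZFP36 rose by 4.91 ± 0.32 at 3 h (adjusted p 1.014e-12), a 29.96-fold higher level, and 27 of the 24128 probe sets rose more at that hour. The change was 3.99 ± 0.32 at 6 h, 4.21 ± 0.26 at 9 h and 3.54 ± 0.32 at 12 h (3.832e-12, 2.612e-15 and 4.303e-11), and 0.17 ± 0.26 at 48 h (95% confidence interval -0.35 to 0.70, adjusted p 0.6312).

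**Figure D3:**
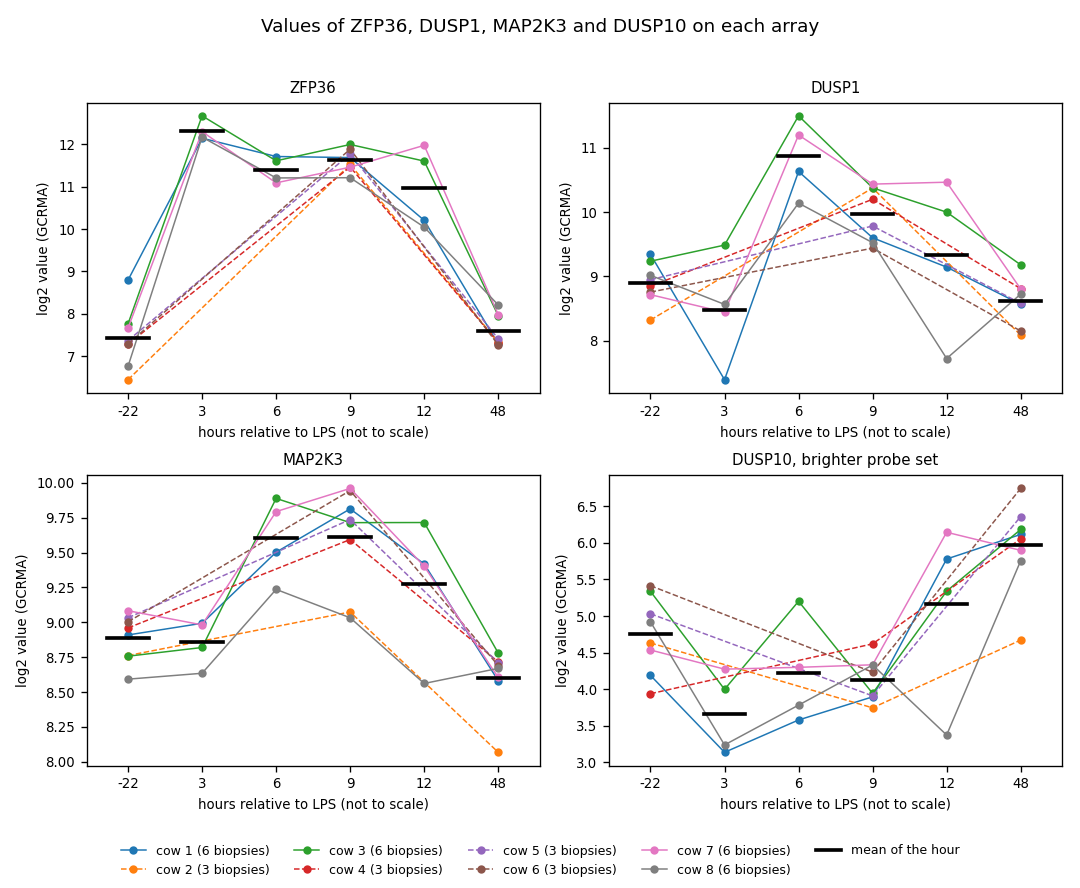
Log2 values of ZFP36, DUSP1, MAP2K3 and the brighter DUSP10 probe set on each of the 36 arrays, by hour relative to LPS. Lines join the arrays of a cow, solid for the 4 cows with 6 biopsies and dashed for the 4 with 3, and black bars are hour means; ZFP36 is at its top at 3 h, DUSP1 at 6 h, MAP2K3 at 6 and 9 h and DUSP10 at 48 h.

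Between neighbouring hours, at a Bonferroni-adjusted p below 0.01, 2 member probe sets changed from -22 to 3 h (the bright one of MAPK14 and ZFP36, both up, among 1.09% of all probe sets). From 3 to 6 h the bright MAPK14 probe set rose by a further 1.44 ± 0.21 (among 8.16%), from 9 to 12 h the middle one fell (2.79%), and from 12 to 48 h ZFP36 fell by 3.37 ± 0.32 (16.1%). From 6 to 9 h no member passed (4.84% of all probe sets did). By limma's unadjusted p 3 were below 0.05, namely DUSP1 and the middle and dim MAPK14 probe sets, each with a negative estimate. Of all probe sets, 31.2% had an unadjusted p below 0.05 there, in either direction. These calls came from the fit without the cow. The count from -22 to 3 h was 1 with the cow as a fixed block, in the 4 cows with 6 biopsies alone and without any one of cows 3 to 8. The count from 3 to 6 h was 0 in those 4 cows alone and without cow 3, 5, 7 or 8, and that from 9 to 12 h was 0 in those 4 cows alone.

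The cows with 6 biopsies and those with 3 were compared at the hours they shared. No member was called for a difference in its change from -22 h by limma's adjusted p, at 9 h or at 48 h, and 0 of 8 had an unadjusted p below 0.05 at either hour. Of all 24128 probe sets 1 (0.00414%) was called at 9 h and 0 (0%) at 48 h, and 3.18% and 2.13% had an unadjusted p below 0.05, so the count of 0 members is near that of the whole array. The widest interval for the difference at 9 h was that of the brighter DUSP10 probe set, 0.01 with a 95% confidence interval of -1.34 to 1.36, so differences of that size were not detectable with 4 cows a set. For ZFP36 the change at 9 h averaged 3.85 in cows with 6 biopsies and 4.57 in cows with 3, a difference of -0.73 (95% confidence interval -1.74 to 0.29).

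Over the 36 arrays, 12 of the 28 pairs of member probe sets had a Pearson r above 0.5 and 3 below -0.5, as a description over arrays that share cows and hours. The bright MAPK14 probe set and ZFP36 had the highest r, 0.83, and the dimmer DUSP10 and middle MAPK14 probe sets the lowest, -0.68. Within hours, after each hour's mean was removed, 7 pairs were above 0.5 and 0 below -0.5. DUSP1 and ZFP36 had an r of 0.60 within hours, against 0.52 over all arrays, and the 2 DUSP10 probe sets had 0.61. All 4 of these probe sets spread most at 12 h, with an SD of 1.21 for DUSP1 and 0.98 for ZFP36. For the brighter and dimmer DUSP10 probe sets it was 1.24 and 0.64. The 4 arrays of that hour therefore weigh heavily in these r values.

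The genes with the most similar profile over the 36 arrays differed from member to member. ZFP36 was most like JUNB (r 0.98), a subunit of the AP-1 transcription factor, whose log2 change was 4.30 at 3 h and 3.59 at 12 h, followed by NUAK2 and SLCO4A1 (0.97 each). DUSP1 was most like TRIB3 (0.87), a pseudokinase of the stress response that was at -0.87 at 3 h and 3.14 at 6 h, then ZBTB43 (0.84) and CEBPG (0.83). MAPK14 (bright probe set) was most like UAP1, ANKRD12 and RNF123 (0.97 each), MAP2K3 like RBPMS (0.88), PHC2 (0.88) and NPC1 (0.87), and DUSP10 (brighter probe set) like CITED2 (0.75), PNRC2 (0.75) and TUBD1 (0.72). These r values describe shared time courses in the same cows.

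The rest of the pathway was read through 8 lists, in which 70 of 124 symbols were measured, each gene by its brightest probe set. At 3 h 5 of the 70 rose and 9 fell, against 4.47% and 2.57% of all genes. At 9 h 31 rose (44.29%) and 16 fell (22.86%), against 36.6% and 28.4% of all genes, and the median log2 change was 0.07, against 0.04 over all genes.

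Closest to MAPK14 in function, all 4 other MAP kinase kinases measured rose at 9 h. MAP2K6, which also activates p38, rose by 2.12 ± 0.51 at 6 h (adjusted p 0.0007834) and 1.58 at 9 h. MAP2K1 and MAP2K2, the kinases of ERK, rose by 1.43 ± 0.10 at 9 h (7.833e-14) and by 1.05 ± 0.15 at 12 h (8.791e-07), and MAP2K4, a kinase of JNK, by 0.24 at 9 h. The list's median log2 change at 9 h was 1.14.

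Among 6 other MAP kinases, 2 rose and 2 fell at 9 h. MAPK8, which is JNK1, fell by 1.56 ± 0.13 at 9 h (2.91e-12), MAPK6 (ERK3) fell by 1.81 ± 0.11 at 6 h (1.402e-14), and MAPK3 (ERK1) rose by 0.80 ± 0.15 at 12 h (2.785e-05). Further upstream, 3 of 12 MAP kinase kinase kinases and TAB adaptors rose and 3 fell at 9 h. MAP3K14, the kinase NIK of the noncanonical NF-kappaB pathway, rose by 2.26 ± 0.29 at 12 h (7.83e-08), TAB1, an adaptor that can bind p38, fell by 2.01 ± 0.14 at 6 h (9.366e-14), and ARAF, a kinase upstream of ERK, fell by 0.92 ± 0.11 at 12 h (2.684e-08).

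Below the MAP kinases, 4 of 7 kinases rose and 3 fell at 9 h. MKNK1, which phosphorylates the cap-binding protein eIF4E, rose by 3.10 ± 0.18 at 6 h (5.768e-15), or 8.59-fold. RPS6KA3 (RSK2) rose by 1.84 ± 0.20 at 9 h (1.233e-09), whereas RPS6KA4 (MSK2) fell by 1.58 ± 0.21 at 6 h (1.403e-07). MAPKAPK3, the close relative of MAPKAPK2, was -0.90 at 6 h and 0.60 at 9 h, both called, in opposite directions.

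Of 8 other dual specificity phosphatases, 2 rose and 1 fell at 9 h, and 0 were called at 3 h by limma's adjusted p. DUSP3 rose by 1.57 ± 0.20 at 12 h (6.039e-08), DUSP12 fell by 1.01 ± 0.19 at 9 h (3.947e-05) and DUSP7, an ERK phosphatase, rose by 0.52 ± 0.15 at 9 h (0.003281). Of 6 other inhibitors of the ERK pathway, 3 rose and 1 fell at 9 h. SPRY1 and SPRY2, feedback inhibitors of receptor tyrosine kinases, rose by 0.72 ± 0.15 at 3 h (0.002497) and by 0.66 ± 0.21 at 9 h (0.009065), and PEBP1 fell by 1.51 ± 0.09 at 12 h (8.741e-15). In the 4 cows with 6 biopsies alone DUSP7 was at 0.44 at 9 h (adjusted p 0.1097), SPRY1 at 0.63 at 3 h (0.08995) and SPRY2 at 0.40 at 9 h (0.2604), none of them called.

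Of 15 genes of AU-rich mRNA binding and deadenylation, 8 rose and 4 fell at 9 h. BTG1, a protein that binds the CCR4-NOT deadenylase, rose by 3.12 ± 0.18 at 9 h (5.604e-16) and its relative TOB1 fell by 3.07 ± 0.18 at 6 h (2.323e-15). TIA1, a translational repressor that binds AU-rich elements, fell by 1.82 ± 0.27 at 12 h (7.379e-07). Of the family of ZFP36, ZFP36L1 was -0.67 at 3 h and 0.46 at 9 h, both called, and ZFP36L2 was -0.34 at 3 h and 0.02 at 9 h, neither called. Of 12 scaffolds of the cascades, 5 rose and 2 fell at 9 h, with GAB1 at -1.91 ± 0.13 at 9 h (4.341e-14), SHC1 at 1.23 ± 0.10 at 9 h (2.98e-12) and LAMTOR1 at 1.49 ± 0.10 at 12 h (2.957e-14).

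**Figure D4:**
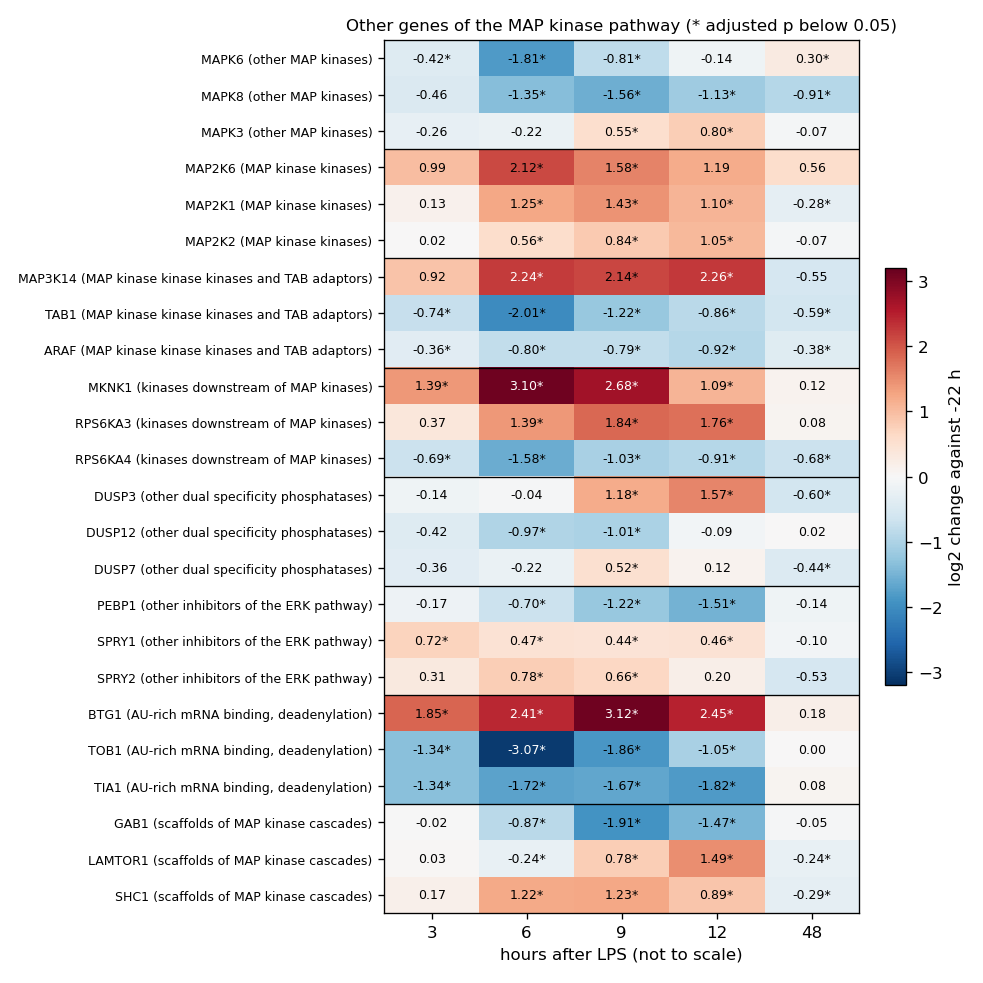
Log2 change against -22 h of 24 other pathway genes, up to 3 from each of the 8 lists, by hour after LPS. Colour and number give the limma estimate and an asterisk an adjusted p below 0.05; MKNK1, BTG1 and MAP3K14 are high from 6 to 12 h, and TOB1, TAB1 and MAPK8 are low at the same hours.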

How the data were processed

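The authors normalized 36 Affymetrix Bovine Genome Arrays with GCRMA (version not given in the sources used here) and deposited log2 values for 24128 probe sets, which were used unchanged. GCRMA shares information across arrays and compresses low values, such as many of those of DUSP10. Genes were named from the platform annotation of 2016, in which 13292 probe sets other than controls named 1 gene. A mean for each hour was estimated over all probe sets and arrays (limma 3.58.1, R 4.3.3), with empirical Bayes moderation. The code was tested on simulated independent arrays without a cow effect, so that test does not cover the repeated arrays of a cow. Hours were compared with -22 h at a Benjamini-Hochberg-adjusted p below 0.05, and with the preceding hour at a Bonferroni-adjusted p below 0.01. The cow was not a term in that fit, so arrays of 1 cow counted as independent. The cow number in the labels pairs the arrays: deviations from the hour mean of the same cow at -22 and 48 h correlated at 0.12 to 0.50 (mean 0.32), and those of different cows at -0.04 on average. The fit was repeated with the cow as a block, with arrays or cows left out, with median centring, with array weights, without dim probe sets and at other thresholds. The number of arrays limits the precision. All member probe sets are named, up to 3 genes of each pathway list by the largest absolute change among called genes that moved one way in all cows, and the 3 genes most correlated with each member. Other genes were added after their values were seen: MAP2K4, MAPKAPK3, ZFP36L1, ZFP36L2 and the marker genes. The members, the pathway lists and the marker lists were chosen with earlier results of these data known. Genome coordinates and sequences were not used here.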

Additional observations from a re-analysis of the deposited data

Results flagged for a closer look

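In 4 of 48 groups of 4 to 8 arrays, 1 member value stood far from the others by Dixon's criterion, which chance alone meets in about 1 group in 20. For the bright MAPK14 probe set, cow 1 had 9.21 at -22 h, where the other cows lay between 8.10 and 8.56, and 10.23 at 3 h, where they lay between 9.36 and 9.50. Cow 2 had 9.64 for the same probe set at 48 h, with the other cows between 8.46 and 8.96, and for MAP2K3 it had 8.07 at 48 h, with the others between 8.58 and 8.78. Both cows stood apart at those hours over all probe sets: on a scale where the mean change from -22 to 9 h is 100%, cow 1 at -22 h lay at 10.3% (the other cows at -3.08 to 2.52%) and cow 2 at 48 h at 24.8% (the others at 1.10 to 4.28%). On that scale cow 1 at 3 h lay at 25.1% (the other cows at 18.2 to 20.4%). At 12 h cows 1, 3, 7 and 8 lay at 74.5, 87.8, 87.1 and 79.0%. The cause was not tested.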

How the results depend on the processing

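The changes of ZFP36 and of the bright MAPK14 probe set from 3 to 12 h, of MAP2K3 and DUSP1 at 6 h and of the middle MAPK14 probe set at 12 h kept their direction and their call under every alternative that changed the fit or the arrays, apart from the mean of the MAPK14 probe sets at 12 h. With the cow as a fixed replicate block, 1 member changed between -22 and 3 h in place of 2, and MAP2K3 was called at 12 h (0.38) and at 48 h (-0.29); with the cow as a random replicate block (correlation 0.114), 2 members changed between 3 and 6 h and 2 between 12 and 48 h, in place of 1 each, and MAP2K3 was called at 12 h (adjusted p 0.04538). The block changed no other member call against -22 h. The main counts of members called against -22 h were 4 at 3 h, 6 at 6 h, 5 at 9 h, 4 at 12 h and 4 at 48 h.

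In the 4 cows with 6 biopsies alone, 0 members were called at 48 h (limma; 712 probe sets in all at 3 h and 1436 at 48 h, against 1423 and 7270 with all cows), 1 changed between -22 and 3 h, 0 between 3 and 6 h and 0 between 9 and 12 h, and MAP2K3 at 3 h turned to 0.022. Without the -22 h array of cow 1 and the 48 h array of cow 2, 4228 probe sets were called at 48 h, and 2 members each changed between 9 and 12 h and between 12 and 48 h. Probe sets called at 48 h were 13002 with median centring, 11016 with array weights (3111 at 3 h) and 4019 without dim probe sets. Array weights also called MAP2K3 at 12 h (0.47, adjusted p 0.02439) and the brighter DUSP10 probe set at 3, 6 and 9 h (-1.19, -0.73 and -0.70), and turned the dimmer DUSP10 probe set to -0.015 at 6 h and 0.0008 at 9 h, and the mean of the MAPK14 probe sets was -0.10 at 12 h and -0.15 at 48 h. Median centring changed no member call. The median of the bright probe sets was at most 0.13 from 0 at any hour (-0.13 at 6 h).

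At a Bonferroni-adjusted p below 0.05, 2, 3, 3 and 0 members were called at 3, 6, 9 and 48 h, and 324, 4530, 6404, 4601 and 544 probe sets in all at 3, 6, 9, 12 and 48 h. Requiring a 2-fold change as well left 2 members at 48 h and 678, 5118, 5814, 5120 and 503 probe sets in all at the 5 hours. At a Benjamini-Hochberg-adjusted p below 0.05 between neighbouring hours, 4, 5, 2, 4 and 4 members changed from -22 to 3, 3 to 6, 6 to 9, 9 to 12 and 12 to 48 h. The share of all probe sets at that threshold was not counted, so these counts cannot be set against the whole array.

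Leaving out 1 cow at a time gave 938 to 1403 probe sets at 3 h (lowest without cow 8) and 3580 to 9761 at 48 h (lowest without cow 1, highest without cow 7), 4 to 7 members at 12 h (7 without cow 8), and between neighbouring hours 1 to 2, 0 to 1, 0 to 1, 1 to 2 and 1 to 2 members. With all cows 22.2% of all probe sets were called higher and 18.9% lower at 12 h. Whole-array counts at 12 h and between neighbouring hours are not given here for these omissions. Values that were not called changed sign in some of these omissions: the dimmer DUSP10 probe set at 3 h (-0.011 to 0.23), 6 h (-0.020 to 0.081) and 9 h (-0.098 to 0.013), the dim MAPK14 probe set at 12 h (-0.47 to 0.24) and 48 h (-0.050 to 0.37), MAP2K3 at 3 h (-0.073 to 0.0017) and ZFP36 at 48 h (-0.0088 to 0.41). The cause of these differences was not tested. Arrays at 3, 6 and 12 h came from 4 cows, so the changes there have wider intervals than at 9 and 48 h. The low values of the dimmer DUSP10 probe set, under 5 on every array, bound its changes poorly.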
